A study of Mus musculus with 5 samples.

Results

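The miR-130 and miR-301 family consists here of 4 microRNAs (miRNAs): mmu-miR-130a-3p, mmu-miR-130b-3p, mmu-miR-301a-3p and mmu-miR-301b-3p. Its members are the 4 spots, of 1265 mouse miRNA spots on the array, that carry the names of these 3p arms. The family was selected on measured values, because earlier results of these same arrays were known when it was chosen, so every value below is a description and none was tested. The arrays are single-colour: total RNA of each of 5 mouse cultures, labelled with Hy5, was applied to 1 array, on which each miRNA has 1 spot.

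The embryoid body (EB) is a floating aggregate of differentiating cells, grown here from the wild-type line V6.5 for 1 week without leukaemia inhibitory factor (LIF). The other 4 cultures are embryonic stem (ES) cells kept with LIF, the cytokine that holds mouse ES cells undifferentiated. PKM1 KI ES is named for a PKM1 knock-in, PKM1 being a splice form of muscle-type pyruvate kinase, which catalyses the last step of glycolysis. 2TS22c ES and ZHBTc4 ES are lines in which Sox2 and Oct3/4 come from a transgene that tetracycline-type drugs switch off; the labels name no drug for either. V6.5 ES is the wild-type line that the others are set against. The altered genes are not on a miRNA array, and each line and the EB is represented by 1 culture. For 2TS22c ES and ZHBTc4 ES the labels give no parental strain shared with V6.5 ES, so the line's own background and its engineered change cannot be told apart. Feeder cells are not mentioned in the labels.

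MiRNAs pair with target messenger RNAs through the seed, bases 2 to 8 of the mature strand, and so lower their translation and stability. Members of the miR-130 and miR-301 family share 1 seed and can therefore share targets. In mouse fibroblasts, miR-130b, miR-301b and miR-721 are known to raise the yield of induced pluripotent cells by repressing the homeobox gene Meox2. In human endothelial cells miR-130a is known to repress MEOX2 and HOXA5, and in human pancreatic cancer cells miR-301a is known to repress NKRF, an inhibitor of NF-kappaB.

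The sequences are shown because the shared seed is what defines the family. RefSeq (assembly GRCm38.p6) held mature sequences for 3 of the 4 members. They are written 5′ to 3′ with the seed in capitals.
mmu-miR-130a-3p: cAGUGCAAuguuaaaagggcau
mmu-miR-130b-3p: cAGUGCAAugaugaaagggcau
mmu-miR-301a-3p: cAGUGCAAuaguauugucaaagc
miR-130a-3p lies at chr2:84741116-84741137 on the minus strand, miR-130b-3p at chr16:17124071-17124092 on the minus strand and miR-301a-3p at chr11:87113054-87113076 on the plus strand. miR-130a-3p and miR-130b-3p are identical at 20 of 22 positions and differ by U11A and A13G, with the miR-130a-3p base first and positions counted from its 5′ end. miR-130a-3p and miR-301a-3p are identical at 12 of 22 positions, and miR-301a-3p and miR-130b-3p at 11 of 22. How far the probes for miR-130a-3p and miR-130b-3p bind each other's miRNA was not measured on these arrays, so part of either signal may come from the other.

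The hairpins from which these arms are cut follow, with the 3p arm in capitals, to show the 5p arm described further on. The 5p arm takes positions 3 to 24 of the Mir130a hairpin, 13 to 34 of Mir130b and 14 to 35 of Mir301, the hairpin of miR-301a.
Mir130a: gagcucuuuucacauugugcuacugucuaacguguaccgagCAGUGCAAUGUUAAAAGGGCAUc
Mir130b: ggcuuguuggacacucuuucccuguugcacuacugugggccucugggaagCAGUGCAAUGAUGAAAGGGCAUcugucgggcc
Mir301: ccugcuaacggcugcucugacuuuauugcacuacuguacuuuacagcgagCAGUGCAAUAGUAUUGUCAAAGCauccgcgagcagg
The hairpins of miR-130b and miR-301b lie 257 bases apart on chromosome 16, on the same strand and both within the span of the gene 2610318N02Rik. The hairpin of miR-301a lies within Ska2, which encodes a protein of the spindle and kinetochore complex. The hairpin of miR-130a, on chromosome 2, overlaps no other listed gene and has no other listed hairpin within 10000 bases.

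All 4 members gave signal above the blank spots on all 5 arrays. Detection meant an unprocessed intensity more than 2 SD over the average of the 1664 blank spots, which set a limit of 40.3 scanner units on the EB array, 59.5 on PKM1 KI ES, 59.9 on 2TS22c ES, 61.6 on ZHBTc4 ES and 59.9 on V6.5 ES. All 20 member spots passed it. Against a stricter limit set on the 24 negative control spots, 17 of the 20 passed. The 3 that did not were miR-301b-3p on PKM1 KI ES, 2TS22c ES and V6.5 ES. Of all miRNAs, between 40.1% and 60.3% per array passed the blank limit and between 29.0% and 39.2% the stricter one.

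The 5 arrays differed in ways that touch every value. The scanner's gain ran between 43 (EB) and 47 (PKM1 KI ES, ZHBTc4 ES and V6.5 ES), with 46 on 2TS22c ES, and ZHBTc4 ES was hybridised alone on the second of 2 chips. Between 507 and 763 miRNAs were detected per array, with the 2 lowest counts on 2TS22c ES and ZHBTc4 ES. The miRNA signal over that of the spike controls was 37.7 on the EB, 29.1 on PKM1 KI ES, 19.5 on 2TS22c ES, 21.4 on ZHBTc4 ES and 26.0 on V6.5 ES. The part these differences play in the results was not tested, and values are given after different ways of scaling where the order changes.

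miR-130a-3p had an unprocessed intensity of 332 on the EB, 236 on PKM1 KI ES, 339 on 2TS22c ES, 324 on ZHBTc4 ES and 320 on V6.5 ES. PKM1 KI ES was the low array, and the other 4 were close together. The local brightness around this spot was 206, 95, 154, 245 and 216 in the same order, so it too was lowest on PKM1 KI ES.

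miR-130b-3p had an intensity of 139 on the EB, 126 on PKM1 KI ES, 110 on 2TS22c ES, 114 on ZHBTc4 ES and 126 on V6.5 ES. PKM1 KI ES and V6.5 ES had the same reading. miR-301a-3p read 139 on the EB, 82 on PKM1 KI ES, 106 on 2TS22c ES, 122 on ZHBTc4 ES and 88 on V6.5 ES. The EB was the highest of the 5 for both miRNAs, although its blank spots were the darkest.

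miR-301b-3p, whose hairpin neighbours that of miR-130b, gave the weakest readings above its limits. It had 75 on the EB, 66 on PKM1 KI ES, 64 on 2TS22c ES, 84 on ZHBTc4 ES and 66 on V6.5 ES. On the EB and ZHBTc4 ES it cleared both limits, and on the other 3 arrays it lay between them.

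**Figure D1:**
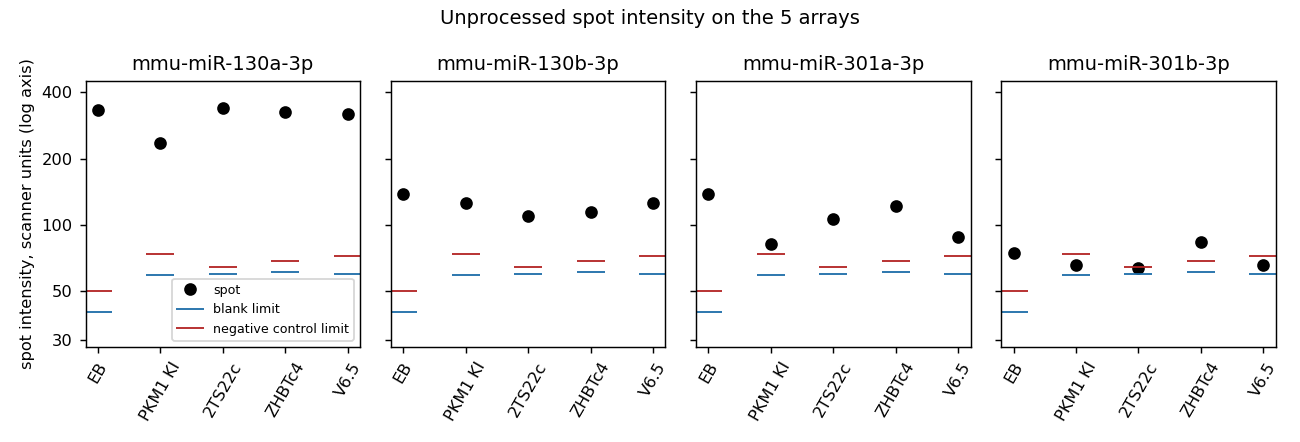
Unprocessed spot intensity in scanner units (log axis) of the 4 family members on the EB, PKM1 KI ES, 2TS22c ES, ZHBTc4 ES and V6.5 ES arrays, 1 point per array, with the blank limit in blue and the negative control limit in red. miR-130a-3p lies far above both limits on each array, whereas miR-301b-3p lies below the negative control limit on PKM1 KI ES, 2TS22c ES and V6.5 ES.

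Levels were compared between arrays after background correction and quantile normalisation, on a log2 scale. With 1 array per group there is no replicate error and no test. As a yardstick, the SD of the log2 differences between the most alike ES arrays, 2TS22c ES and ZHBTc4 ES (Pearson r = 0.988 across miRNAs, which are not replicates), was 0.24 over the 414 miRNAs detected on both. Neighbouring arrays closer than this are called not told apart. It contains differences between those lines and is not a replicate error.

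The normalised log2 level of miR-130a-3p was 8.44 on the EB, 7.70 on PKM1 KI ES, 9.17 on 2TS22c ES, 9.01 on ZHBTc4 ES and 8.09 on V6.5 ES. 2TS22c ES and ZHBTc4 ES were not told apart at the top, and EB, V6.5 ES and PKM1 KI ES followed with gaps above the yardstick. Its range over the 5 arrays, 1.47, was the widest of the 4 members. The median range of the 392 miRNAs detected on all arrays was 0.57.

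miR-130b-3p had log2 levels of 7.38 on the EB, 6.91 on PKM1 KI ES, 7.39 on 2TS22c ES, 7.33 on ZHBTc4 ES and 6.91 on V6.5 ES. EB, 2TS22c ES and ZHBTc4 ES formed an upper set and PKM1 KI ES and V6.5 ES a lower one, with a gap of 0.41 between them. miR-301a-3p had the same split in the main processing, with 7.38 on the EB, 6.45 on PKM1 KI ES, 7.32 on 2TS22c ES, 7.42 on ZHBTc4 ES and 6.52 on V6.5 ES. There the gap was 0.79. With local background taken off, 2TS22c ES (6.48) was the lowest array for miR-301a-3p, below V6.5 ES (6.60).

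miR-301b-3p had log2 levels of 6.67 on the EB, 6.24 on PKM1 KI ES, 6.43 on 2TS22c ES, 6.78 on ZHBTc4 ES and 6.24 on V6.5 ES. ZHBTc4 ES and the EB were not told apart, nor were 2TS22c ES, V6.5 ES and PKM1 KI ES. The gap between the EB and 2TS22c ES, 0.243, barely passed the yardstick of 0.241. With local background taken off 2TS22c ES was the highest array (6.82). The ranges of miR-130b-3p, miR-301a-3p and miR-301b-3p were 0.48, 0.97 and 0.54.

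**Figure D2:**
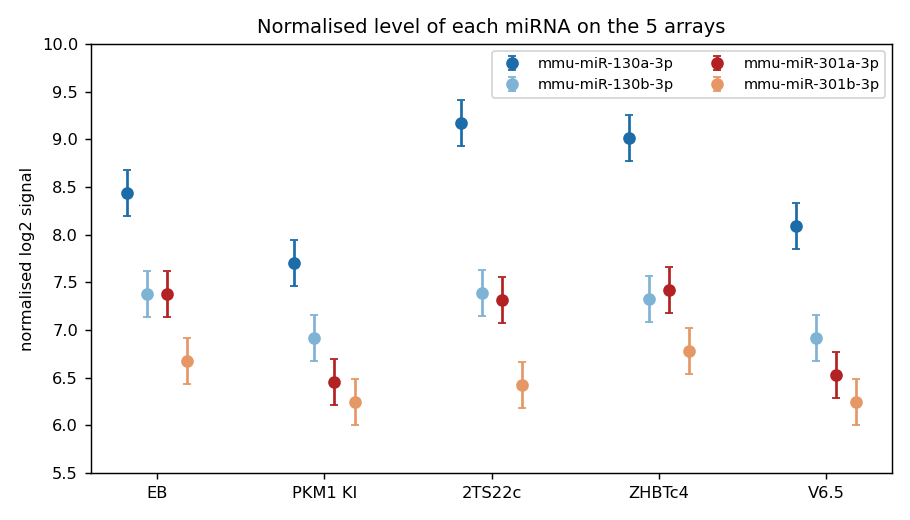
Normalised log2 signal of the 4 family members on the 5 arrays, 1 point per array. Bars show the yardstick of 0.24 on either side, which is no replicate error, and heights of different miRNAs are not comparable because each has its own probe. All 4 members lie higher on the EB, 2TS22c ES and ZHBTc4 ES than on V6.5 ES.

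The comparison of the EB with V6.5 ES addresses differentiation, since the EB came from that line. All 4 members were higher on the EB array. The log2 difference was 0.35 for miR-130a-3p, 0.47 for miR-130b-3p, 0.86 for miR-301a-3p (1.81-fold) and 0.43 for miR-301b-3p. Among the 654 miRNAs detected on both arrays, whose median difference was 0.01 and of which 51.8% were higher on the EB, miR-301a-3p ranked 4 from the top and the other members ranked 30, 37 and 55. None reached 2-fold, and 0.118% of the 850 miRNAs detected on either array were at least 2-fold higher.

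Every member stayed higher on the EB than on V6.5 ES under the 6 other ways of processing that change the signal, 24 of 24 values. The size varied: the difference of miR-301a-3p ran between 0.34 and 1.52. With local background taken off, miR-301a-3p ranked 107 of 654, miR-130a-3p 104, miR-301b-3p 120 and miR-130b-3p 11. Under the other alternatives miR-301a-3p ranked between 1 and 9. With scaling to the spike controls the median of all miRNAs itself moved to 0.66, and the members' median of 1.11 stands beside that shift. In the same comparison all 5 ES cell markers (3p arms of the miR-290 to miR-295 cluster) were lower on the EB in the main processing, with a median log2 difference of -0.44. All 5 were higher with spike scaling (median 0.11, under the 0.66 of all miRNAs) and 4 of 5 with local background taken off (median 0.56). All 5 neural markers passed the blank limit on the EB against 3 of 5 on V6.5 ES, beside 59.3% and 59.6% of all miRNAs. Against the negative control limit it was 4 and 1. The counts over the blank limit were the same on both arrays for mesenchymal (8 of 8), muscle (2 of 6), liver (2 of 3) and blood or endothelial markers (4 of 8). A bulk array cannot tell more cells of a type from more of a miRNA in each cell.

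The comparison of PKM1 KI ES with V6.5 ES addresses the knock-in. With 1 culture of each, differences of line, clone or culture cannot be told apart from it. The log2 difference was -0.39 for miR-130a-3p, 0.00 for miR-130b-3p, -0.07 for miR-301a-3p and 0.00 for miR-301b-3p. In the main processing miR-130a-3p was thus the only member apart from V6.5 ES by more than the yardstick. It ranked 34 from the lowest of the 643 miRNAs detected on both arrays. The differences of all these miRNAs had an SD of 0.24, the size of the yardstick, and the share passing it was not counted. With local background taken off the difference of miR-130a-3p turned positive (0.14), while miR-130b-3p had 0.69 and miR-301b-3p -0.40. In the authors' deposited table miR-301a-3p had -0.34 and miR-301b-3p -0.30. No member was at least 2-fold higher, against 0.229% of 874 miRNAs. The median of the members was -0.04 and that of the 643 miRNAs detected on both arrays 0.01.

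In the Sox2-switchable line 2TS22c ES, miR-130a-3p exceeded its V6.5 ES level by 2.11-fold, a log2 difference of 1.08. In the main processing it was the one member at least 2-fold higher in any of the 4 comparisons with V6.5 ES. Over the 6 alternatives that change the signal, 7 of 24 member values reached 2-fold on the EB, 3 of 24 on 2TS22c ES and 3 of 24 on ZHBTc4 ES. These values re-process the same arrays, and the share of all miRNAs at 2-fold was not counted under the alternatives. Of the 7 on the EB, 3 came from spike scaling, where the median of all miRNAs was 0.66. Another 2 came from the authors' deposited table, where the differences of all miRNAs had an SD of 0.61 (0.29 in the main processing). These counts therefore do not rank the cultures. In the main processing 2.99% of 804 miRNAs were at least 2-fold higher on 2TS22c ES, and miR-130a-3p ranked 18 of 457 miRNAs detected on both arrays. The other log2 differences were 0.48 for miR-130b-3p, 0.79 for miR-301a-3p and 0.19 for miR-301b-3p, the last within the yardstick.

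The size of these differences rested on the scaling. The unprocessed intensities of miR-130a-3p were nearly equal, 339 on 2TS22c ES and 320 on V6.5 ES, and its log2 difference was 0.27 with scaling to the spike controls, 0.65 with scaling to the median and 0.34 in the authors' deposited table. miR-130b-3p was lower on 2TS22c ES in that table (-0.10), and miR-301a-3p was lower once local background was taken off (-0.13). The other 22 of 24 values kept the members higher on 2TS22c ES. The median of all miRNAs was 0.07 in the main processing, -0.16 with spike scaling and -0.68 in the authors' deposited table.

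In the Oct3/4-switchable line ZHBTc4 ES, the log2 difference from V6.5 ES was 0.92 for miR-130a-3p, 0.42 for miR-130b-3p, 0.90 for miR-301a-3p and 0.54 for miR-301b-3p. No member was 2-fold higher, against 2.61% of 805 miRNAs. The members' median of 0.72 stood beside 0.04 for the 469 miRNAs detected on both arrays. Again 22 of 24 values under other processing were positive, the exceptions being miR-130b-3p with spike scaling (-0.04) and in the authors' deposited table. With spike scaling miR-130a-3p differed by 0.11. The median of all miRNAs was itself -0.17 with spike scaling and -0.55 in the authors' deposited table.

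**Figure D3:**
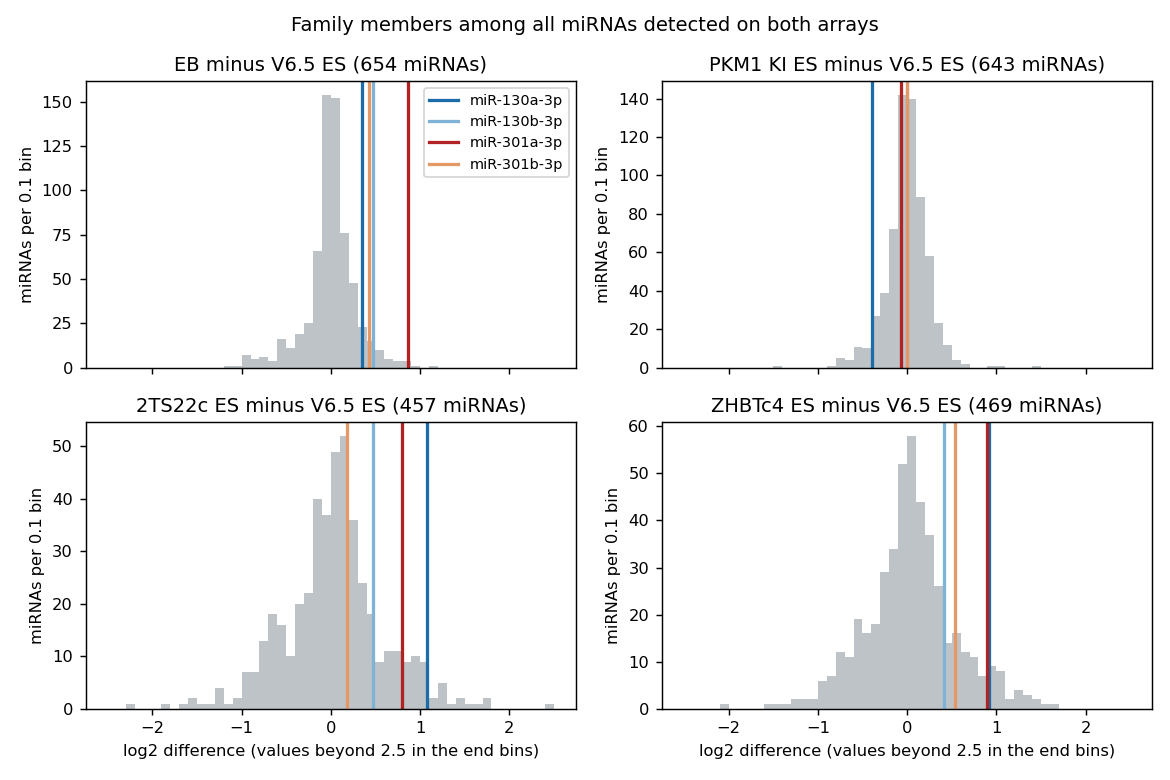
Histograms of the log2 difference from V6.5 ES of all miRNAs detected on both arrays, in bins of 0.1, with the 4 family members as vertical lines. The members lie to the right of the centre for the EB, 2TS22c ES and ZHBTc4 ES, and around or left of it for PKM1 KI ES.

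These 4 comparisons share the V6.5 ES array, so they do not bear on each other independently. Comparisons that leave it out gave these values. The EB exceeded PKM1 KI ES by log2 differences of 0.74 for miR-130a-3p, 0.47 for miR-130b-3p, 0.93 for miR-301a-3p and 0.43 for miR-301b-3p, with a median of -0.01 over the 654 miRNAs detected on both. 2TS22c ES minus ZHBTc4 ES was 0.16 for miR-130a-3p, 0.06 for miR-130b-3p, -0.11 for miR-301a-3p and -0.36 for miR-301b-3p. In the main processing only miR-301b-3p passed the yardstick there, which is the SD of this same pair of arrays. It ranked 12 from the lowest of the 414 miRNAs detected on both. The share of all miRNAs passing the yardstick was not counted. With local background taken off miR-130a-3p had 0.89, miR-130b-3p 0.66, miR-301a-3p -0.46 and miR-301b-3p 0.24, so the last turned round.

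Which culture had most of the family depended on the scaling. With quantile normalisation 2TS22c ES was highest for 2 members and ZHBTc4 ES for 2, whereas the EB was highest for all 4 with scaling to the spike controls and in the authors' deposited table. Scaled to the spike controls, miR-130a-3p had log2 levels of 9.08 on the EB, 7.79 on PKM1 KI ES, 8.42 on 2TS22c ES, 8.26 on ZHBTc4 ES and 8.15 on V6.5 ES. PKM1 KI ES and V6.5 ES were highest for no member under any of the settings that rank all 5 arrays.

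**Figure D4:**
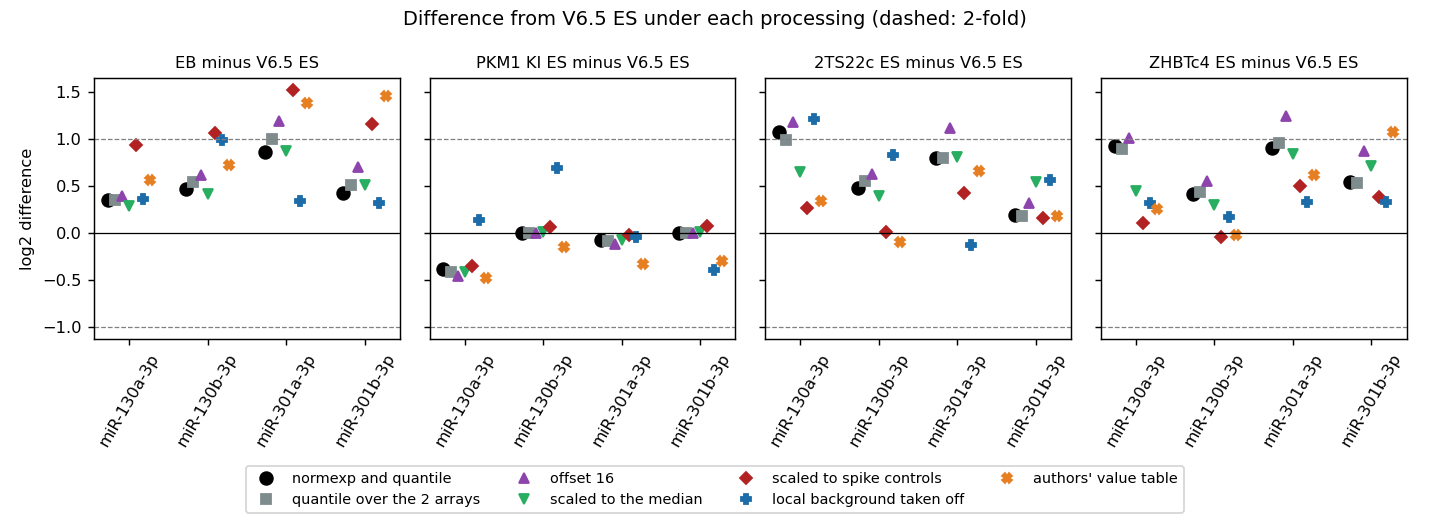
Log2 difference from V6.5 ES of each member under the main processing (black) and 6 alternatives, with dashed lines at 2-fold. All points of the EB lie above 0, while those of 2TS22c ES and ZHBTc4 ES run from slightly below 0 to above 1 and those of PKM1 KI ES scatter around 0.

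The 5p arms of the same hairpins, usually the strand that is degraded, were near the blanks. Of their 20 spots, 5 passed the blank limit and 0 the negative control limit. Per array, 40.1% to 60.3% of all miRNAs passed the first limit and 29.0% to 39.2% the second. miR-130b-5p accounted for 3 of the 5, on the EB, PKM1 KI ES and V6.5 ES, and miR-301b-5p for the other 2, on the EB and PKM1 KI ES. Each arm has its own probe, so these readings do not give a ratio of arms.

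RefSeq listed 7 mature mouse miRNAs with the seed AGUGCAA among 1679, and all 7 had spots. The 4 outside the family as defined here are shown to compare their bases after the seed.
mmu-miR-721: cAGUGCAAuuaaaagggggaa
mmu-miR-130c: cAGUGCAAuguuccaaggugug
mmu-miR-6341: cAGUGCAAugauauugucacuau
mmu-miR-6389: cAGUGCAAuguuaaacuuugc
miR-721, grouped with miR-130b and miR-301b in the reprogramming of mouse fibroblasts, read 53 on the EB, 75 on PKM1 KI ES, 46 on 2TS22c ES, 61 on ZHBTc4 ES and 58 on V6.5 ES. Only the EB and PKM1 KI ES readings passed the limits. miR-130c and miR-6341 passed the blank limit on no array, and miR-6389 passed it narrowly on PKM1 KI ES (62), 2TS22c ES (62) and ZHBTc4 ES (66). A mouse miR-454-3p was not analysed here.

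**Figure D5:**
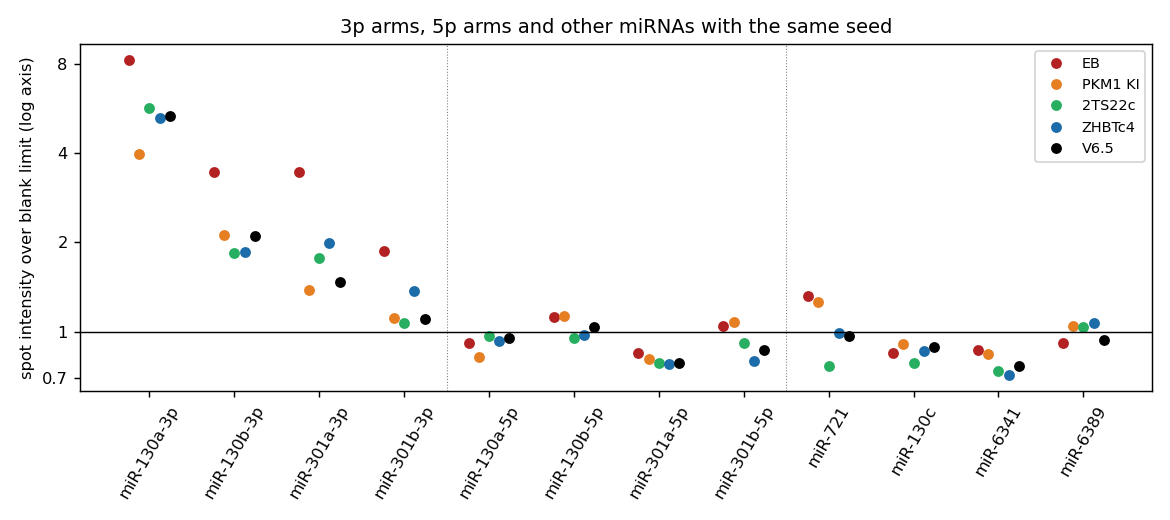
Spot intensity over the blank limit (log axis, 1 at the limit) of the 4 members, their 5p arms and the 4 other miRNAs with the same seed, 1 point per array. The 3p arms all lie above 1, miR-301b-3p narrowly on PKM1 KI ES, 2TS22c ES and V6.5 ES, and most other points lie close to 1 or below it, miR-721 being above it on the EB and PKM1 KI ES.

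The seed of miR-19a-3p and miR-19b-3p, members of the miR-17-92 cluster that promotes proliferation, is shifted by 1 base and shares GUGCAA with the family seed.
mmu-miR-19a-3p: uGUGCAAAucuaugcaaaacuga
mmu-miR-19b-3p: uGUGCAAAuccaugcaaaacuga
miR-19a-3p and miR-19b-3p differed from V6.5 ES by -0.01 and -0.05 on the EB, where the family members were higher by 0.35 or more. The pair differed by -0.13 and -0.46 on PKM1 KI ES, by 0.83 and 0.54 on 2TS22c ES, and by 1.17 and 0.65 on ZHBTc4 ES. On the switchable lines they were thus higher alongside the family, under quantile normalisation, and on the EB within the yardstick of V6.5 ES. With spike scaling their median was 0.51 on the EB, where that of all miRNAs was 0.66. On 2TS22c ES it was -0.13, where that of all miRNAs was -0.16.

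A list of 9 miRNAs outside the family known to raise the yield of induced pluripotent cells (miR-291a-3p, miR-294-3p, miR-295-3p, the 3p arms of miR-302a, miR-302b, miR-302c and miR-302d, miR-93-5p and miR-106b-5p) went another way on the EB. There 2 were higher and 7 lower than on V6.5 ES, with a median log2 difference of -0.42, against 0.45 for the family and 0.01 for all miRNAs. The median was 0.37 with local background taken off, beside 0.35 for the family and 0.03 for all miRNAs. With spike scaling it was 0.12, beside 1.11 for the family and 0.66 for all miRNAs. The 2 higher ones in the main processing were miR-106b-5p (0.51) and miR-93-5p (0.12), both from the Mcm7 cluster of the miR-17 family.

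On PKM1 KI ES 5 of the 9 were higher and 4 lower, with a median of 0.09. The miR-302 members, which are abundant in primed, epiblast-like cells, were higher there, by 1.44 for miR-302a-3p and 1.09 for miR-302d-3p. On 2TS22c ES and ZHBTc4 ES 5 of the 6 detected on both arrays were higher, with medians of 1.13 and 1.30 (0.39 and 0.59 with spike scaling), and 3 were detected on V6.5 ES alone. The miR-302 members were lower there: miR-302d-3p was 3.54-fold lower on 2TS22c ES and at least 3.57-fold lower on ZHBTc4 ES, where it was not detected. miR-302a-3p, detected on neither line, was at least 2.34-fold and at least 2.36-fold lower. miR-294-3p, of the cluster that dominates mouse ES cells, was higher by 1.36 on each of these lines.

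Of 13 miRNAs of endothelial and blood cells, where miR-130a is also known, 7 were detected on both the EB and V6.5 ES, 4 higher and 3 lower, with a median of 0.07. Their median on PKM1 KI ES was -0.01, on 2TS22c ES 0.32 and on ZHBTc4 ES 0.86, over 8, 7 and 5 miRNAs detected on both arrays. With spike scaling the last 2 medians were 0.09 and 0.15, they were 0.04 and 0.17 in the authors' deposited table, and the ZHBTc4 ES median was 0.19 with local background taken off. miR-126-3p, the most characteristic endothelial miRNA, differed by 0.08 on the EB. Its log2 levels were 6.32 on the EB and 6.24 on V6.5 ES, dim readings at which the offset pulls differences towards 0. miR-221-3p, which restrains the Kit receptor in blood progenitors, differed by -0.71 there. miR-17-5p and miR-92a-3p, also from the miR-17-92 cluster, had log2 differences of 1.05 and 0.99 from V6.5 ES in both switchable lines.

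The labelled cell types were checked on their markers. All 5 ES markers passed both limits on all 5 arrays, the EB included. Of 8 mesenchymal or feeder markers, 8 passed the blank limit on the EB and PKM1 KI ES, 5 on 2TS22c ES and ZHBTc4 ES, and 8 on V6.5 ES. Their summed intensity above the blanks, not scaled between arrays, was 634 on the EB, 598 on PKM1 KI ES, 194 on 2TS22c ES, 224 on ZHBTc4 ES and 800 on V6.5 ES. The log2 of their summed normalised signal was 10.12, 9.87, 9.67, 9.68 and 10.09 in that order. Both sums were lowest on the switchable lines, but the normalised one was highest on the EB. On the unscaled intensity above the blanks miR-130a-3p had 299, 188, 291, 274 and 271 in that order of arrays. Neural markers passed the blank limit on 5, 3, 1, 1 and 3 of 5 spots in the same order of arrays. Of all miRNAs, 59.3%, 60.3%, 40.1%, 41.1% and 59.6% passed it. Muscle, liver and blood or endothelial markers were detected in part, at most 2 of 6, 2 of 3 and 4 of 8. The part of other cell types in the family's values was not tested.

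The miRNAs whose pattern over the 5 arrays was most like that of each member were found by the root mean square difference of log2 levels, each miRNA centred on its own mean, among 391 miRNAs detected on all arrays. For miR-130a-3p they were miR-191-5p (0.10), miR-93-5p (0.11), miR-26a-5p (0.13), miR-106b-5p (0.13) and miR-17-5p (0.14). miR-93-5p, miR-106b-5p and miR-17-5p belong to the miR-17 family. For miR-130b-3p they were miR-99b-5p (0.06), miR-181b-5p, miR-101b-3p, miR-195a-5p and miR-125a-5p (0.13).

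For miR-301a-3p they were miR-107-3p (0.13), miR-34a-5p, miR-30b-5p, miR-124-3p and miR-99b-5p (0.20). For miR-301b-3p they were miR-3473d (0.11), miR-148a-3p, miR-361-5p, miR-130b-3p and miR-296-3p (0.14). miR-130b-3p, from the neighbouring hairpin, thus ranked 4 for miR-301b-3p, and miR-301b-3p ranked 9 for miR-130b-3p. These ranks were 235 and 200 with local background taken off. In the main processing miR-130a-3p ranked 251 for miR-130b-3p and 297 for miR-301b-3p, and miR-301a-3p ranked 95 and 138. For miR-301a-3p, miR-130b-3p ranked 8, miR-301b-3p 14 and miR-130a-3p 23. For miR-130a-3p, miR-301a-3p ranked 29, miR-130b-3p 63 and miR-301b-3p 93. Likeness over 5 arrays on 1 scale is a description and carries no statement on shared control.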

How the data were processed

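Per the labels' protocols, total RNA was labelled with Hy5. The deposited scanner files hold the intensity of each spot (median pixel brightness) and of its local background, with nothing taken off, per the file headers. A further deposited table holds the authors' processed intensity values, whose making is not given in the sources used here. They are linear in the scanner intensities (lowest Pearson r 0.99998), with a background removed and a median of 25 on each array.

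Here, spot intensities were corrected with limma 3.58.1 in R 4.3.3 (normexp, saddle, all spots, offset 50), quantile-normalised between the 5 arrays on their 1265 miRNA spots, then log2-transformed. The offset pulls differences of dim spots towards 0. The script was tested on simulated data. Differences are single arrays minus single arrays, with no test; the number of arrays limits the precision. Alternatives were local background subtraction, spike or median scaling, quantile normalisation of the 2 arrays compared, offset 16, a limit from the negative controls and the authors' deposited table. Named miRNAs are the members, the listed miRNAs and the 5 most alike per member. Members and lists were chosen with earlier results of these data known. The arrays' miRNA names were matched to RefSeq by name.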

Additional observations from a re-analysis of the deposited data

How the results depend on the processing

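The members' median log2 difference kept its direction in the EB against V6.5 ES, 2TS22c ES against V6.5 ES, ZHBTc4 ES against V6.5 ES and the EB against PKM1 KI ES under all 7 alternatives. Changes above the yardstick of 0.24 came from 3 of them. With scaling to the spike controls the median was 1.11 in the EB against V6.5 ES (0.45 in the main processing), 0.21 in 2TS22c ES against V6.5 ES (0.64), 0.24 in ZHBTc4 ES against V6.5 ES (0.72) and 1.19 in the EB against PKM1 KI ES (0.60). In the authors' deposited table it was 1.06, 0.26, 0.44 and 1.38 for the same comparisons, and -0.32 in PKM1 KI ES against V6.5 ES (-0.04). With local background taken off it was 0.32 in ZHBTc4 ES against V6.5 ES, 0.34 in the EB against PKM1 KI ES and 0.45 in 2TS22c ES against ZHBTc4 ES (-0.02). The median of all miRNAs also moved. In the comparisons that kept their direction, the members' median minus that of all miRNAs stayed positive under all 7 alternatives. In the authors' deposited table this relative value was 0.94 in 2TS22c ES and 0.98 in ZHBTc4 ES against V6.5 ES, beside 0.57 and 0.68 in the main processing. The cause of these changes was not tested. With the negative control limit the difference of miR-301b-3p between the EB and V6.5 ES is a lower bound of 0.33. miR-301b-3p lies close to its limits, which leaves its differences the least certain. No replicate could be left out, and no paired analysis was possible because each group has 1 array.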
